A study of Mus musculus with 4 samples.

Results

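The GIMAP genes, which encode the GTPases of immunity-associated proteins, were examined in Ly49H+ natural killer (NK) cells with and without TNFR2. They were chosen by symbol, as the rows named Gimap1, Gimap3, Gimap4, Gimap5, Gimap6, Gimap7, Gimap8 and Gimap9, and these 8 rows are all the rows with a Gimap symbol among the 35798 named genes. The family was picked with the comparison of the genotypes already known, so the differences between WT and TNFR2 KO in these genes are given as a description and carry no test.

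RNA was sequenced from 4 libraries, 2 per genotype. WT libraries came from CD45.1 Ly49H+ NK cells and TNFR2 KO libraries from CD45.2 Ly49H+ NK cells, and both kinds of cells had been transferred together into NSG mice, which lack T, B and NK cells of their own but keep myeloid cells. The hosts were infected with murine cytomegalovirus (MCMV), and on day 3.5 the cells were sorted from pooled spleens of 3 mice, and the sample descriptions state that WT and TNFR2 KO libraries of the same number came from the same pool. Genotype, CD45 allele and sort gate therefore changed together, infection and transfer were shared by all 4 libraries, and the labels give neither age nor sex. The study describes 1 experiment run in duplicate and does not state outright that replicates 1 and 2 came from different mice, so p-values measure the spread between these libraries, which may be technical.

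GIMAP proteins share a GTP-binding domain of the AIG1 type and are made mainly in lymphocytes. Several members sit on intracellular membranes such as those of the endoplasmic reticulum, Golgi or lysosomes, where they are linked to lymphocyte survival and quiescence. Loss of Gimap5 in rodents depletes peripheral T cells and NK cells, and loss of Gimap1 depletes mature T and B cells. In the mouse the genes lie side by side in 1 cluster.

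That cluster spans chr6:48647234-48770851 on GRCm38, or 123.6 kb. From the start of the span the order was Gimap8, Gimap9, Gimap4, Gimap6, Gimap7, Gimap1, Gimap5 and Gimap3, with 6 genes on the plus strand and Gimap6 and Gimap3 on the minus strand. Promoters of all 8 members were found in the RefSeq table for GRCm38.p6, each running from 250 bases before to 50 bases after the start, and Gimap8 had a promoter for each of 2 starts. Those of Gimap3, Gimap4 and Gimap7 are shown because Gimap3 had the largest fold change of the family, Gimap4 the highest level per length and Gimap7 the smallest fold change. Capitals mark matches, on either strand, to 5 short motifs of factor families active in lymphocytes: GGG and CC with any 5 bases between them for NF-kB, CGGAAG for ETS, TGTGGT for RUNX, TAAACA for FOXO and CACCC for KLF. Gimap3 lies on the minus strand at chr6:48770802-48771101, Gimap4 on the plus strand at chr6:48684328-48684627 and Gimap7 on the plus strand at chr6:48718371-48718670.
Gimap3: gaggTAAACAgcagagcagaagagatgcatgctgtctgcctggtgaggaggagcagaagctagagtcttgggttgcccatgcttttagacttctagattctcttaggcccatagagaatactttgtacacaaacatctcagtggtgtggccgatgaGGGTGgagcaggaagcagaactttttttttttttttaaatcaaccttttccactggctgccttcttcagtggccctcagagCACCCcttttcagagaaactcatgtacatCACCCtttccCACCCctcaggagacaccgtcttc
Gimap4: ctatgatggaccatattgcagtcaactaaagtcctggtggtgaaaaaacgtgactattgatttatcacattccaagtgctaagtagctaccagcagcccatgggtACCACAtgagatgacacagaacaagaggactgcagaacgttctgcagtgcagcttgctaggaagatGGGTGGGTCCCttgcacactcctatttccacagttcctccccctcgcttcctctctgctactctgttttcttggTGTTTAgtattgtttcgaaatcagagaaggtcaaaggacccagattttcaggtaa
Gimap7: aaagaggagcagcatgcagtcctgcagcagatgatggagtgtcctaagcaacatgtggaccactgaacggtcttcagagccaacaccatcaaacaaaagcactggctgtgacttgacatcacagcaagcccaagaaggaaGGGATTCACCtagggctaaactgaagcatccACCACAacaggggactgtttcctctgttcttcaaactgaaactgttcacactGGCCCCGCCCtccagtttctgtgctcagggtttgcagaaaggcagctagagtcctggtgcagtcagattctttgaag

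The Gimap3 promoter held 1 FOXO and 4 KLF matches and no NF-kB match. The Gimap4 promoter held 2 NF-kB, 1 RUNX, 1 FOXO and 1 KLF match, of which both NF-kB matches and the KLF match overlapped one another. The Gimap7 promoter held 2 NF-kB matches and 1 RUNX match, with no overlap. Across the family, NF-kB letters occurred in 5 of 9 promoters, against 50.8% of all 32851 promoters. These belonged to 4 of 8 members (Gimap4, Gimap7, Gimap8 and Gimap9). KLF letters occurred in 6 of 9 promoters, of 5 members, against 57.5% of all promoters. Among the rarer motifs, ETS occurred in 4 of 9 promoters (Gimap1, Gimap6 and Gimap8) against 16.9%. RUNX occurred in 3 of 9 (Gimap1, Gimap4 and Gimap7) against 16.8%, and FOXO in 2 of 9 (Gimap3 and Gimap4) against 13.4%. No motif was found in all 8 members, and none of these matches was measured as a binding site.

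Every GIMAP gene was higher in TNFR2 KO than in WT libraries under TMM scaling, whereas none was higher under scaling on NK lineage genes. Markers of other cell types were also present in these libraries, as given below. Levels are in CPM, counts divided by the TMM-scaled library size, unless stated. Summed over the 8 genes, the family held 2149 and 2147 CPM in WT replicates 1 and 2 and 3239 and 3189 CPM in TNFR2 KO replicates 1 and 2, a ratio of about 1.5. As a share of all counts before scaling, this was 0.220% and 0.219% in WT and 0.317% and 0.312% in TNFR2 KO. In the fit over all genes the log2-fold changes of TNFR2 KO over WT ran from 0.44 to 0.74 with a median of 0.55, where the median of all 13822 genes tested was -0.0028. All 8 members passed the filter on low counts, and none owed this to a single group, since the lowest level in any library was 71.3 CPM. Because the sample was bulk RNA, fewer cells that make a transcript and less of it per cell cannot be told apart.

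**Figure D1:**
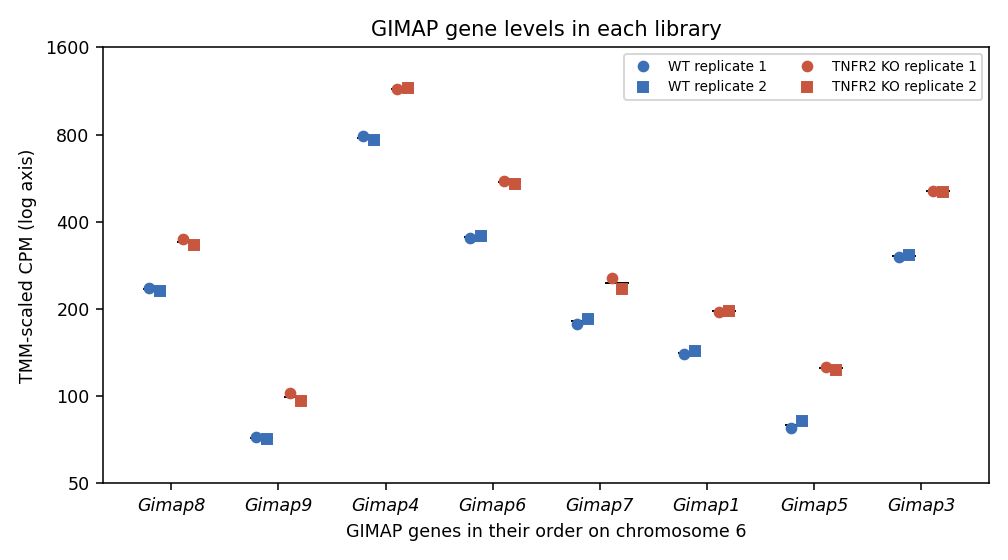
TMM-scaled CPM (log axis) of the 8 GIMAP genes, in their order along chromosome 6, with a point for each library and a short line at each group mean. In each gene both TNFR2 KO points (red) lie above both WT points (blue), from 71.3 CPM for Gimap9 in WT to 1157 CPM for Gimap4 in TNFR2 KO; under scaling on NK lineage genes no member's mean was higher in TNFR2 KO.

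Gimap1, Gimap3 and Gimap5 encode members with a hydrophobic C-terminal segment that anchors them in membranes. Gimap3, whose human counterpart is a pseudogene, was measured at 302 and 307 CPM in WT replicates 1 and 2 and at 512 and 508 CPM in TNFR2 KO replicates 1 and 2. Its group means were 305 ± 3.59 and 510.3 ± 2.84 (SD, n = 2), a 1.68-fold difference (log2-fold change 0.74, SE 0.0246) and the largest of the family under TMM. Gimap5, the member whose loss depletes NK cells in rodents, was at 77.4 and 82.2 CPM in WT and 126 and 124 CPM in TNFR2 KO, or 1.56-fold higher (log2-fold change 0.64, SE 0.0380). Both genes had ranges that did not overlap between genotypes, with duplicates much closer to each other than to the other group. Gimap1 was at 139.7 and 143 CPM in WT and 195 and 197 CPM in TNFR2 KO, 1.39-fold higher (log2-fold change 0.47, SE 0.0290). Among these anchored members the folds thus ran from 1.39 for Gimap1 to 1.68 for Gimap3.

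Gimap4, which promotes the death of T cells, was the most abundant member. It was at 792 and 769 CPM in WT and 1145 and 1157 CPM in TNFR2 KO, with means of 781 ± 16.3 and 1151 ± 8.25 (SD, n = 2), 1.47-fold higher (log2-fold change 0.56, SE 0.0233). Gimap4 was the 98th most abundant of all genes tested by mean CPM, and its WT libraries differed by far less than the gap of 353 CPM between the groups. Gimap6, whose protein binds the autophagy protein GABARAPL2, was at 351 and 358 CPM in WT and 553 and 541 CPM in TNFR2 KO, 1.54-fold higher (log2-fold change 0.63, SE 0.0253).

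Gimap7, whose protein activates its own GTPase by pairing with another copy, was at 178 and 185 CPM in WT and 256 and 234 CPM in TNFR2 KO. Its means were 181 ± 5.20 and 245 ± 15.4 (SD, n = 2), and the 1.35-fold difference (log2-fold change 0.44, SE 0.0398) was the smallest of the family under TMM. The TNFR2 KO duplicates of Gimap7 were 9.27% apart, the widest gap between duplicates of any member, and the ratio between genotypes was 0.53 between the libraries numbered 1 and 0.34 between those numbered 2 on the log2 scale. Gimap8, which carries several GTP-binding domains in 1 protein, was at 237 and 231 CPM in WT and 349 and 332 CPM in TNFR2 KO, 1.46-fold higher (log2-fold change 0.54, SE 0.0302). Gimap9 was at 72.1 and 71.3 CPM in WT and 102 and 96.3 CPM in TNFR2 KO, 1.39-fold higher (log2-fold change 0.47, SE 0.0400). It had the lowest CPM of the family in all 4 libraries.

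Under TMM the groups did not overlap in 8 of 8 members, with TNFR2 KO higher, where 36.4% of all genes tested had this pattern and 37.7% the opposite one. By edgeR's quasi-likelihood fit, 8 of 8 members were higher with an adjusted p below 0.05, beside 24.2% of all genes tested higher and 26.2% lower. With an absolute log2-fold change over 1 in addition, 0 of 8 were, beside 1.56% of all genes. These counts only restate the comparison by which the family was picked. Ranked among all genes tested, the members' log2-fold changes lay between percentile 90.3 (Gimap7) and percentile 96.0 (Gimap3). Within each pair of same-numbered libraries the median ratio over the 8 members was about the same, 0.55 for number 1 and 0.56 for number 2 on the log2 scale.

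The members did not all differ by the same factor. The largest fold (Gimap3) was 1.24 times the smallest (Gimap7), and the SD of the 8 log2-fold changes was 0.105. This altered the makeup of the family's counts, a quantity that no scaling of whole libraries can move. Gimap3 made up 14.1% and 14.3% of all GIMAP counts in WT and 15.8% and 15.9% in TNFR2 KO, a mean gain of 1.70 percentage points. Gimap7 made up 8.27% and 8.62% in WT and 7.90% and 7.34% in TNFR2 KO, a mean change of -0.82 percentage points. Gimap6 (16.5% to 17.0%) and Gimap5 (3.71% to 3.88%) also took slightly larger mean shares in TNFR2 KO. Mean shares of Gimap4 (36.3% to 35.8%), Gimap8 (10.9% to 10.6%), Gimap1 (6.58% to 6.10%) and Gimap9 (3.34% to 3.09%) were slightly smaller, and the Gimap4 shares of the genotypes overlapped.

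Some of these counts rest on the assignment of reads that fit more than 1 gene. Of the 31-base stretches of Gimap3 transcripts, 13.2% also occurred in Gimap5 transcripts, and 8.02% of those of Gimap5 occurred in Gimap3, so reads may have been split between these neighbours. Gimap1 shared 33.9% of its stretches with Gimap1os, an antisense gene at the same place that has no row of its own among the named genes. The sources used here do not say whether strand was used in the assignment or whether Gimap1os was part of it. Gimap4 and Gimap9 shared no such stretch with any other gene, and their estimated counts were whole numbers in 4 of 4 libraries. In these genes, free of shared stretches, the log2-fold changes were 0.56 and 0.47 under TMM, inside the range of the other 6.

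Levels were compared between members per kb of the longest coding transcript. Gimap4 led in both genotypes, at 433 ± 9.05 CPM per kb in WT and 638 ± 4.57 in TNFR2 KO (SD, n = 2). In WT, Gimap7 (143 ± 4.10 CPM per kb) and Gimap3 (142 ± 1.67) followed, with overlapping libraries, and then Gimap6 (112 ± 1.53). The lower levels in WT were those of Gimap1 (94.6 ± 1.42 CPM per kb), Gimap8 (74.1 ± 1.27), Gimap9 (51.8 ± 0.423) and Gimap5 (40.9 ± 1.74), each apart from its neighbours in the order. In TNFR2 KO the order was the same except that Gimap3 (238 ± 1.32 CPM per kb) stood above Gimap7 (193 ± 12.1), and no neighbours overlapped. With the shortest coding transcript as the length, an alternative added after the data were seen, Gimap6 moved to second place and Gimap1 and Gimap8 overlapped in TNFR2 KO. The place of Gimap6 in the order therefore depends on which transcript is taken.

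The difference between replicate numbers, which the sample descriptions tie to shared pools of spleens, was not used to pick the family and could be tested. Replicate 2 over replicate 1 gave log2-fold changes from -0.053 (Gimap9, SE 0.0402) to 0.026 (Gimap5, SE 0.0390) in the fit with genotype and replicate number as terms. By edgeR's quasi-likelihood test (Benjamini-Hochberg adjusted) 0 of 8 members were called for this term, and 0 had an unadjusted p under 0.05. Over all genes tested, 32 (0.232%) were called and 653 (4.72%) had an unadjusted p under 0.05, so 0 of 8 is near the share over all genes and says nothing particular about the members. The smallest unadjusted p among the members in this model fitted across all genes with edgeR was 0.076, for Gimap8 (log2-fold change -0.053, SE 0.0284).

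The RNA of the sorted cells differed between genotypes beyond the GIMAP genes, for some genes in the same direction under TMM and for others in the opposite one. The targeted gene Tnfrsf1b was at 265 and 268 CPM in WT and 55.1 and 58.6 CPM in TNFR2 KO, and its fall (log2-fold change -2.23, SE 0.0352) passed edgeR's quasi-likelihood test (Benjamini-Hochberg adjusted) at an adjusted p of 1.35e-13. Library totals ran from 32713256 to 39543650 counts, so the least abundant member rested on at least 2629 counts in each library. Defining NK genes were abundant in all libraries, with the activating receptor gene Ncr1 at 258 and 255 CPM in WT and 511 and 510.3 CPM in TNFR2 KO, and Klra8, which encodes Ly49H, at 313 and 316 CPM and 762 and 725 CPM. Macrophage markers were present in every library and higher in WT, with Lyz2 at 771 and 777 CPM in WT and 114 and 110.3 CPM in TNFR2 KO, and Adgre1 at 97.0 and 93.9 CPM and 9.69 and 8.83 CPM.

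The list of NK lineage genes moved in the same direction as the GIMAP genes under TMM and by more. Of 40 tested, 36 rose and 1 (Cd226, an activating receptor gene, -0.39) fell at an adjusted p under 0.05, beside 24.2% of all genes higher and 26.2% lower. With a log2-fold change over 1 in addition, 10 rose, beside 1.56% of all genes. The median log2-fold change of the NK lineage list was 0.81, with 24 genes above every GIMAP gene and 8 below every one. The most abundant were Gzmb, which encodes a granule protease (log2-fold change 0.75), Il2rb, which encodes the shared receptor chain for IL-2 and IL-15 (0.44), and Prf1, which encodes perforin (0.83). Their summed level was 16479 and 16454 CPM in WT and 27341 and 27220.2 CPM in TNFR2 KO.

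Of the macrophage or monocyte markers tested, 23 of 25 fell at both thresholds, with a median log2-fold change of -2.89, and the exceptions Ccr2 (0.78, near level at 0.037 under scaling on NK lineage genes) and Ly6c2 (0.26, reversed there to -0.49) rose at an adjusted p under 0.05. Clec4f was at 0 in every library. Summed, the list held 3175 and 3161 CPM in WT and 1351 and 1327 CPM in TNFR2 KO. Most of the TNFR2 KO sum came from the exceptions. Ccr2 was at 403 and 384 CPM in WT and 686 and 669 CPM in TNFR2 KO. Ly6c2 was at 267 and 256 CPM in WT and 312 and 315 CPM in TNFR2 KO. The sums therefore understate the fall of the other markers. Neutrophil or granulocyte precursor markers fell in 15 of 15 (1007 and 1025 CPM in WT, 101 and 96.9 CPM in TNFR2 KO). Mast cell or basophil markers fell in 10 of 10 (1253 and 1248 CPM in WT, 28.9 and 27.4 CPM in TNFR2 KO). Dendritic cell or class II genes fell in 6 of 11, and Itgax, which NK cells also express, rose (1.11). The list summed to 2180.4 and 2207 CPM in WT and 1037 and 1062 CPM in TNFR2 KO. Itgax alone held 419 and 409 CPM of this in WT and 882 and 908 CPM in TNFR2 KO. Erythroid or megakaryocyte markers fell in 11 of 13 (308 and 299 CPM in WT, 57.8 and 61.1 CPM in TNFR2 KO), and stromal or endothelial markers in 4 of 7 (Kdr, Vwf, Pdgfrb and Col1a2). The stromal or endothelial list summed to 113 and 119 CPM in WT and 137 and 136 CPM in TNFR2 KO. Nearly all of this was Pecam1, at 105.4 and 110.3 CPM in WT and 134.3 and 133.5 CPM in TNFR2 KO. The sum therefore says little about the other markers of that list. All these falls are at both thresholds in edgeR's quasi-likelihood test (Benjamini-Hochberg adjusted), which 11.8% of all genes tested passed. The part of any of these cell types in the GIMAP differences was not tested.

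T and B cells also make GIMAP proteins. T cell markers summed to 1627 and 1613 CPM in WT and 1491 and 1521 CPM in TNFR2 KO, and 0 of 12 passed both thresholds. At an adjusted p under 0.05, 7 fell and 2 rose, beside 26.2% of all genes tested lower and 24.2% higher. Cd4 was at 274 and 270.3 CPM in WT and 185 CPM in both TNFR2 KO libraries, and Trac, the constant part of the T cell receptor alpha chain, at 123 and 122 CPM and 97.0 and 97.4 CPM. The genes that rose under TMM were Trbc1 (0.55) and Cd3g (0.098), and both were reversed under scaling on NK lineage genes, to -0.20 and -0.65. The call of Cd3g was also lost with library size alone, with a minimum mean of 10 CPM and without WT replicate 2 (adjusted p from 0.0513 to 0.296 in these edgeR fits). Trbc2, the most abundant of the list, had a log2-fold change of -0.024. B cell defining markers were near 0, with Cd79a, Ms4a1 and Pax5 at 0 to 7 counts per library. Only 3 of 10 B cell markers passed the filter on low counts, of which Cd22 rose (0.91) and Cd79b fell (-0.65), and the list summed to 16.1 and 15.6 CPM in WT and 26.3 and 25.4 CPM in TNFR2 KO.

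Libraries were also scaled so that the geometric mean of the 40 NK lineage genes was equal in all of them. This takes these genes to be at the same level per NK cell in both genotypes, which was not tested. Under this scaling the GIMAP genes were not higher in TNFR2 KO. Gimap3 was level, at 391 and 398 CPM in WT and 393 and 395 CPM in TNFR2 KO (log2-fold change -0.0034, SE 0.0257). Gimap5 (log2-fold change -0.10), Gimap6 (-0.12) and Gimap4 (-0.19) were slightly lower in TNFR2 KO, and Gimap8 (-0.21), Gimap1 (-0.28), Gimap9 (-0.28) and Gimap7 (-0.31) lower still. Gimap7 was at 229.96 and 240.04 CPM in WT and 196 and 182 CPM in TNFR2 KO on this scale. The median of the family was -0.20, while the median of all genes tested moved to -0.75 and 96.0% of genes were lower. At an adjusted p under 0.05, 7 of 8 members were lower and 0 were higher, beside 86.1% of all genes lower and 1.19% higher. The family thus lay between the NK lineage genes and the median gene under both scalings, and only its sign depended on which of them was set to 0. The change of scaling lowered all log2-fold changes by nearly the same amount, as it did the median of all genes (-0.0028 to -0.75). Any gene with a smaller rise under TMM was therefore bound to change sign, so such a reversal is no separate result for that gene.

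**Figure D2:**
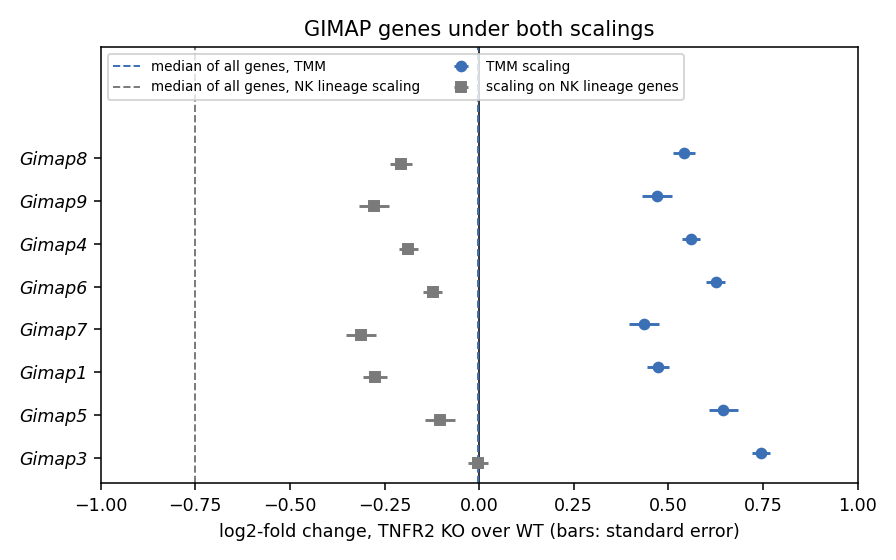
Log2-fold change of TNFR2 KO over WT (bars, standard error) of each GIMAP gene under TMM (blue circles) and under scaling on NK lineage genes (grey squares), with the median of all genes tested as a dashed line for each. Values run from 0.44 to 0.74 under TMM and from -0.31 to -0.0034 under scaling on NK lineage genes, where the median of all genes is -0.75.

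Genes of related function were compared with the family from lists that were chosen with earlier results of these data known. The counts of these lists stand beside 24.2% of all genes tested higher and 26.2% lower at an adjusted p under 0.05. At both thresholds these shares were 1.56% and 11.8%. Interferon-inducible GTPases, such as the guanylate-binding proteins, are another group of immune GTPases, and their genes moved in the opposite direction to the GIMAP genes under TMM. Of 18 tested, 16 fell and 2 rose at an adjusted p under 0.05, with a median log2-fold change of -0.68. Gbp2 was at 829 and 813 CPM in WT and 224 and 221 CPM in TNFR2 KO (log2-fold change -1.88, adjusted p = 3.48e-14 by edgeR's quasi-likelihood test (Benjamini-Hochberg adjusted)). Gbp5 (-2.01), Mx2 (-1.96), Tgtp1 (-1.87) and Iigp1 (-1.85) also fell at both thresholds, and Gbp7 fell by less (-0.44). Gvin1, which encodes a very large interferon-inducible GTPase, rose from 708 and 666 CPM to 1007 and 935 CPM (0.50), and this was reversed to -0.25 under scaling on NK lineage genes. The other gene that rose, Mx1 (0.20), was also reversed there, to -0.55, and its call was lost with DESeq2, with library size alone and without TNFR2 KO replicate 1 or WT replicate 2. Gvin1 was the only gene of this list in the range of the GIMAP genes, and the other 17 lay below every GIMAP gene under TMM.

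**Figure D3:**
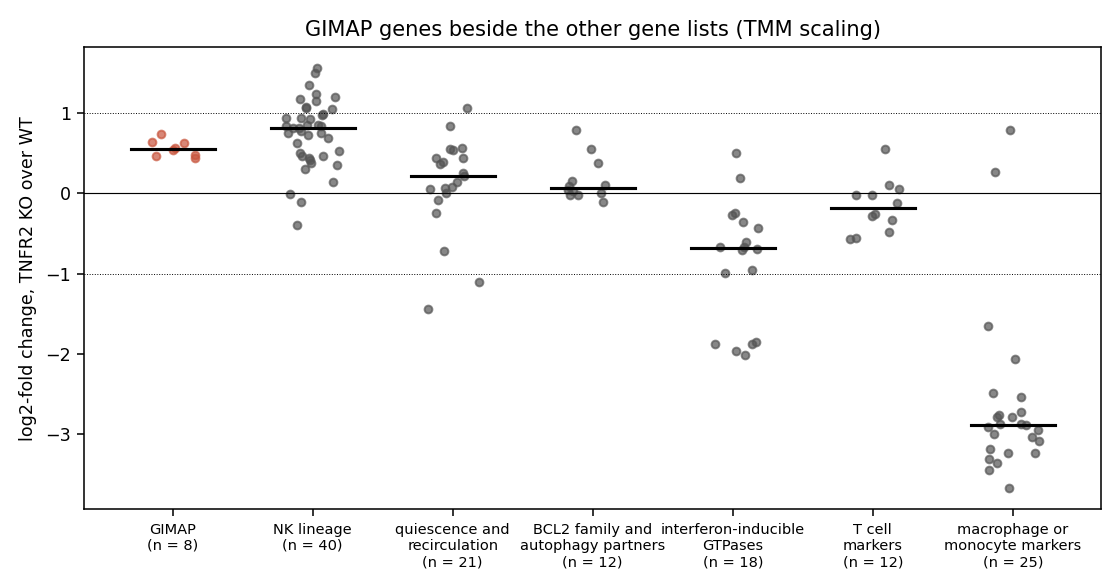
Log2-fold change of TNFR2 KO over WT under TMM for the GIMAP genes and 6 other gene lists, with a point per gene, a line at each list's median and dotted lines at an absolute log2-fold change of 1. The GIMAP genes (median 0.55) lie below the NK lineage median (0.81) and above those of quiescence and recirculation (0.21), BCL2 family and autophagy partners (0.062), T cell markers (-0.19), interferon-inducible GTPases (-0.68) and macrophage or monocyte markers (-2.89); under scaling on NK lineage genes the GIMAP median was -0.20.

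Genes of lymphocyte quiescence and recirculation, processes in which GIMAP proteins are placed, had a median log2-fold change of 0.21. Of 21 tested, 12 rose and 4 fell at an adjusted p under 0.05, the latter Il7r, Ccr7, Tcf7 (-0.72) and Slfn2 (-0.25). Abundant genes of the list included Btg1, an antiproliferative gene (386 and 380.1 CPM in WT, 554 and 567 CPM in TNFR2 KO, log2-fold change 0.55), and Klf2, a quiescence transcription factor (226 and 238 CPM, 312 and 319 CPM, 0.44). Both rose under TMM and were reversed under scaling on NK lineage genes. At both thresholds S1pr5, an egress receptor of NK cells, rose (47.4 and 51.2 CPM in WT, 102 and 105 CPM in TNFR2 KO, 1.07). Il7r (7.04 and 6.83 CPM, 2.30 and 2.81 CPM, -1.45) and Ccr7 (1.77 and 1.71 CPM, 0.749 and 0.874 CPM, -1.10) fell, both from low levels, and without WT replicate 1 the adjusted p of Ccr7 was 0.0511 in edgeR's quasi-likelihood test.

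GIMAP proteins have been tied to BCL2 family members and, through Gimap6, to the autophagy proteins of the GABARAP group. This list had a median log2-fold change of 0.062, and of 12 genes tested 4 rose and 1 fell at an adjusted p under 0.05, with 0 past both thresholds. Its most abundant genes were Mcl1, a survival gene (439 and 437 CPM in WT, 429.7 and 430.2 CPM in TNFR2 KO, log2-fold change -0.026, adjusted p = 0.39 by edgeR's quasi-likelihood test), Bak1, a death effector that fell slightly (-0.10), and Gabarap (0.0023, adjusted p = 0.956 by the same edgeR test). The 4 genes that rose are named after their values were seen, and Gsk3b, a kinase gene, rose by the least (0.11, reversed to -0.64 under scaling on NK lineage genes). The call of Gsk3b was also lost with DESeq2, with library size alone, with a minimum mean of 10 CPM and without WT replicate 2 (adjusted p from 0.073 to 0.27 in these edgeR and DESeq2 fits). Bcl2, a survival gene, rose from 38.7 and 38.6 CPM to 69.4 and 64.4 CPM (0.79). Bcl2l11, which encodes the death inducer BIM, rose from 87.0 and 82.9 CPM to 124 and 126 CPM (0.56), and Gabarapl2, the partner of Gimap6, from 63.4 and 64.3 CPM to 84.0 and 82.1 CPM (0.38). Under scaling on NK lineage genes Bcl2 was near level (0.046), and Bcl2l11 and Gabarapl2 were reversed.

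Genes next to the cluster did not share its pattern as a group. Of 52 annotated genes within 500 kb of the span, 18 were tested, and their median log2-fold change was -0.18. In this window 8 fell and 4 rose (Lrrc61, Gm28053, Gpnmb and Malsu1) at an adjusted p under 0.05, beside 26.2% of all genes tested lower and 24.2% higher. At both thresholds 5 fell and 0 rose, beside 11.8% of all genes lower and 1.56% higher. Before the cluster the nearest tested genes were AI854703, at 13.5 kb (log2-fold change -0.64, adjusted p = 0.141 by edgeR), Zfp775, at 24.0 kb (0.14, adjusted p = 0.492 by edgeR), and Repin1, at 48.2 kb (0.064, adjusted p = 0.634 by edgeR). After it came Tmem176b at 63.0 kb, which fell from 6.04 and 5.67 CPM to 1.47 and 1.34 CPM (-2.05, SE 0.178), and Tmem176a at 70.1 kb, which fell from 3.29 and 3.71 CPM to 1.14 and 1.62 CPM (-1.35, SE 0.231). The adjacent Tmem176 genes encode membrane proteins best known from myeloid cells. The next tested gene on that side was Gpnmb, at 265.7 kb, which rose slightly (0.32) and was reversed under scaling on NK lineage genes (-0.43). Lrrc61 (0.59) and Malsu1 (0.25) were reversed there too, to -0.16 and -0.50. The call of Malsu1 was also lost with DESeq2, with library size alone, with a minimum mean of 10 CPM and without any 1 of the 4 libraries (adjusted p from 0.0618 to 0.203 in these edgeR and DESeq2 fits). Zfp467 (-1.46), Gm10243 (-2.90) and Atp6v0e2 (-2.91) also fell at both thresholds. They did so from low levels, with WT means of 5.23, 9.78 and 1.41 CPM. AI854703, Zfp775 and Repin1 were low too, with WT means of 1.27, 5.90 and 10.8 CPM, where no GIMAP gene was below 71.3 CPM in any library.

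Inside the span, 1 gene other than the members was tested, Gm28053, a coding gene of chr6:48718607-48752644 that overlaps Gimap7, Gimap1 and Gimap5 and is named after its values were seen. It was at 10.3 and 8.95 CPM in WT and 12.6 and 11.3 CPM in TNFR2 KO, with a log2-fold change of 0.32 (SE 0.111) and an adjusted p of 0.0312 in edgeR's quasi-likelihood test. That call was lost with DESeq2 (adjusted p = 0.105), with library size alone (0.0746) and without TNFR2 KO replicate 1 (0.13) or WT replicate 2 (0.211) in edgeR, and the value was reversed to -0.43 under scaling on NK lineage genes. It shared 2.20% of the 31-base stretches of Gimap7. What it shares with Gimap1 and Gimap5 was not tallied, since only the partner with the most shared stretches was kept for each member.

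**Figure D4:**
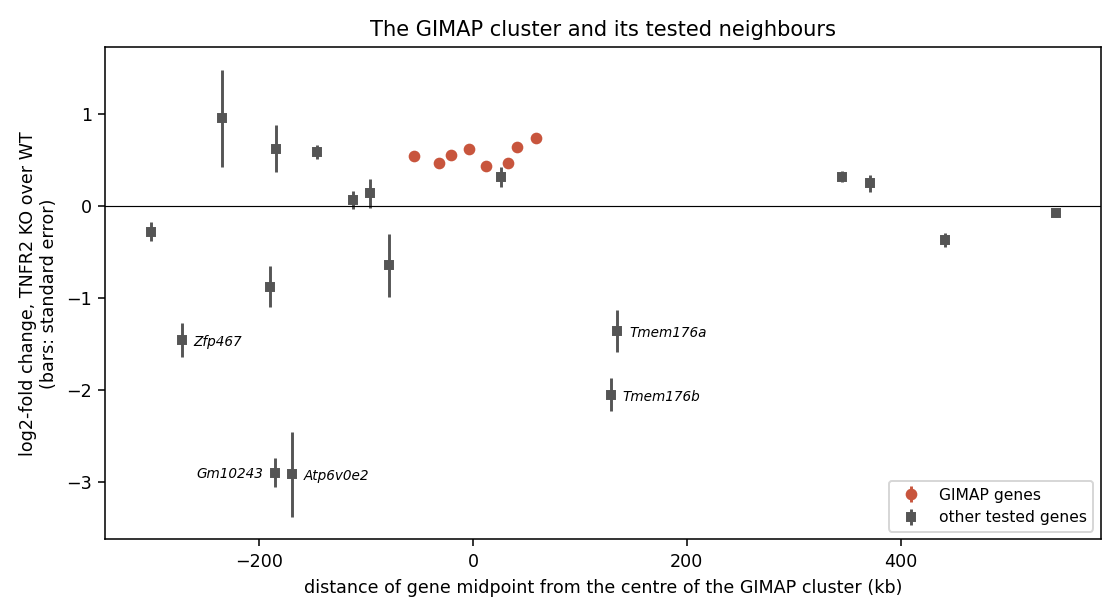
Log2-fold change of TNFR2 KO over WT under TMM (bars, standard error) against distance from the centre of the GIMAP cluster in kb, for the 8 GIMAP genes (red circles) and the 18 other tested genes within 500 kb (grey squares). The GIMAP genes lie between 0.44 and 0.74 in 1 run, while 5 named neighbours fell below -1; under scaling on NK lineage genes the GIMAP values lay between -0.31 and -0.0034.

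The pattern of the family over the 4 libraries was set against that of 8754 genes averaging 10 CPM or more, by the Euclidean distance between centred log2 CPM and the members' mean profile. The nearest were Man1c1, which encodes a Golgi mannosidase (distance 0.0174), Rnaset2b, a ribonuclease gene (0.0229), Rnf167, a ubiquitin ligase gene (0.0234), Tbc1d10c, which encodes a Rab GTPase-activating protein of lymphocytes (0.0249), and Tnk2, a kinase gene (0.0258). Their log2-fold changes were 0.54 to 0.57 under TMM. All 5 were reversed under scaling on NK lineage genes, as any gene with a value in this range had to be. The nearest member to that mean profile was Gimap8 (0.0468) and the farthest Gimap3 (0.185), and 22 genes outside the family were nearer than Gimap8. With 4 libraries in 2 groups, many genes can share such a profile, and 462 genes outside the family were nearer than Gimap3.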

How the data were processed

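Poly-A RNA of the 4 libraries was sequenced in 100-base pairs on strand-specific libraries. The submitters' processing notes name Trimmomatic 1.4, kallisto 0.46.1 and mm10, and the methods name Tximport for summing transcripts to genes. The authors deposited the resulting expected counts, that is estimated counts, per gene symbol and unscaled. The sources used here do not give the transcript annotation. A row without a gene name (0.0559% to 0.0728% of counts) was left out.

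Counts were rounded, filtered with filterByExpr, scaled with TMM and tested across 13822 genes with edgeR 4.0.16 (quasi-likelihood, trended dispersion, genotype as the only term, R 4.3.3) with Benjamini-Hochberg adjustment. Thresholds were an adjusted p of 0.05 and, where stated, an absolute log2-fold change of 1, as in the study. Every adjusted p is from this edgeR test unless DESeq2 is named. The steps were also run on simulated data in which 200 genes were changed, each up or down at random. Those data held no broad shift between genotypes, so they do not bear on the choice of scaling. The smallest two-sided p of an exact permutation test of 2 libraries against 2 is 0.333, and single values have no test. Duplicates differed by more than counting noise (mean chi-square per gene 3.36 in WT and 3.58 in TNFR2 KO). Same-numbered libraries are paired by the sample descriptions, which state a shared pool of spleens, and across genes the correlation of their deviations from the group means was 0.0243.

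Members and gene lists were chosen with earlier results of these data known. Apart from genes said to be named after their values were seen, the text names the members, the targeted gene, defining markers, the 3 nearest tested neighbours on each side and neighbours past both thresholds, the 3 most abundant genes of the lists described and the quiescence, BCL2 and GTPase genes past both thresholds, and the 5 genes nearest in profile. Genes named as the few exceptions to a list's count or for their part in its sum (Cd226, Itgax, Kdr, Vwf, Pdgfrb, Col1a2, Pecam1, Cd3g, Cd22, Cd79b, Mx1, Tcf7, Slfn2, Gsk3b, Lrrc61, Malsu1, Ccr2, Ly6c2 and Clec4f) were chosen after their values were seen. Some genes that this rule or the marker lists would name are not reported here.

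Positions, lengths and shared 31-base stretches come from GENCODE release M21 on GRCm38 and promoters from RefSeq on GRCm38.p6. Protein sequences were not used here. Alternatives were DESeq2 1.42.0, a replicate block, each library left out, no filter or a minimum mean of 10 CPM, and in place of TMM the library size alone, the upper quartile, DESeq2's size factors or the NK lineage genes. Plots were drawn with matplotlib 3.10.9 under Python 3.11.15.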

Additional observations from a re-analysis of the deposited data

Results flagged for a closer look

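A row of the table without a gene name lies outside every comparison and was higher in TNFR2 KO. It held 0.0716% and 0.0728% of the counts of TNFR2 KO replicates 1 and 2, a mean of 0.0722%, against 0.0559% and 0.0561% in WT replicates 1 and 2. It names no GIMAP gene and was not tested.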

How the results depend on the processing

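Scaling on NK lineage genes moved the median of all genes and reversed the GIMAP genes: the family's median went from 0.55 to -0.20, Gimap1 to -0.28, Gimap3 to -0.0034, Gimap4 to -0.19, Gimap5 to -0.10, Gimap6 to -0.12, Gimap7 to -0.31, Gimap8 to -0.21 and Gimap9 to -0.28, and 0 members were higher and 7 lower at an adjusted p below 0.05, where 86.1% of all genes tested were lower. Outside it, all 88 values of single members over the other 11 settings were positive, from 0.37 to 0.77, which describes the comparison used to pick the family and is no test of it. The family's median was 0.49 with library size alone, 0.51 over genes averaging 10 CPM or more, 0.56 with the upper quartile and 0.54 to 0.58 with each library left out. With the replicate block it was 0.55, and 1830 genes passed both thresholds, against 1842 without it (1627 lower, 215 higher), 1603 with DESeq2 and 1650 to 1867 with each library left out. The family's median stayed below that of the NK lineage list by a difference of -0.26, or -0.28 to -0.24 with each library left out.

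The scaling on NK lineage genes also reversed Bcl2l11 (-0.19), Btg1 (-0.20), Cd3g (-0.65), Gabarap (-0.75), Gabarapl2 (-0.37), Gm28053 (-0.43), Gpnmb (-0.43), Gsk3b (-0.64), Gvin1 (-0.25), Il2rb (-0.31), Klf2 (-0.30), Lrrc61 (-0.16), Ly6c2 (-0.49), Malsu1 (-0.50), Man1c1 (-0.18), Mx1 (-0.55), Repin1 (-0.68), Rnaset2b (-0.18), Rnf167 (-0.20), Tbc1d10c (-0.21), Tnk2 (-0.20), Trbc1 (-0.20) and Zfp775 (-0.61), and the calls of Bcl2, Ccr2 and Gzmb were lost there. These changes follow from a shift of all values by nearly the same amount and are not separate results for each gene. That scaling gave 3585 genes past both thresholds (3549 lower, 36 higher). Of the lists, 15 interferon-inducible GTPases were then lower in place of 5, 0 quiescence genes higher in place of 1, and 0 NK lineage genes higher in place of 10 and 1 lower in place of 0. The NK lineage counts had to move this way, since the scaling sets the mean of that list equal in all libraries. The minimum of 10 CPM left 480 genes past both thresholds (424 lower, 56 higher), 0 quiescence genes lower in place of 2, and 13 genes that differed between replicate numbers in place of 32, since fewer genes were tested. Quiescence genes lower were 1 to 2 with each library left out, with 1 without TNFR2 KO replicate 1 or WT replicate 1. Values near 0 changed sign: Gabarap was -0.058 with library size alone, -0.034 with the minimum of 10 CPM and -0.016 to 0.037 with each library left out. With each library left out, Trbc2 was -0.060 to 0.029 and Zfp775 -0.029 to 0.29, positive and negative respectively without TNFR2 KO replicate 1. Over the 51 other named genes, 542 of 602 values kept their direction and their side of the threshold.

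Genes at a few CPM, such as Ccr7, rest on the fewest counts, and 2 libraries per genotype limit every error given here.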
